A study of Mus musculus with 78 samples.

Results

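Kidney messenger RNA was compared between low-fat diet mice that received 5 daily doses of tetrachloroethylene (PERC) and low-fat diet mice that received its vehicle. The comparison was taken by its labels, as all libraries of the repeated regimen in the low-fat diet (LFD) group. It holds 16 libraries, 9 PERC and 7 vehicle, of the 78 that the labels name and the 77 that had a file. All mice were male C57BL/6J, a common inbred strain, and had been fed the LFD, with 4% fat, for 8 weeks. PERC was given at 300 mg/kg per day in a vehicle of Alkamuls-EL620, an emulsifier, in saline, and both groups were killed 4 h after the last of 5 doses. The labels put 9 and 7 libraries in these groups where the series description gives 8 in each. In the wider study, the same doses were given to mice on feed with 31% fat (high-fat diet, HFD) and on feed short of methionine, choline and folate (MCD), and single doses were given in each diet.

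PERC is a chlorinated solvent used in dry cleaning and degreasing. Cytochrome P450 oxidation turns it into trichloroacetate, which activates PPARA, the nuclear receptor that switches on genes of fatty acid oxidation in liver and in the proximal tubule of the kidney. Glutathione conjugation, the other route, ends in cysteine conjugates that the enzyme beta-lyase cleaves to reactive products inside proximal tubule cells. Injured proximal tubule cells make kidney injury molecule 1, the product of Havcr1, and cells short of amino acids or under mitochondrial stress raise the transcription factor ATF4, which drives amino acid synthesis and transport.

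Libraries held 8556278 to 28508827 counts in genes (median 14126345 with PERC and 17770111 with vehicle). The share of reads in genes was 51.1% to 54.2% with vehicle and 45.4% to 53.6% with PERC, and its part in the results was not tested. Levels are given as CPM (counts in a library scaled to 1000000 counts in genes, with TMM factors), which compare one gene between libraries and not different genes with each other. The 34 genes of proximal tubule function summed to 50253 to 59778 CPM with vehicle, and markers of thick limb, distal tubule, collecting duct, podocyte and endothelium were all present, as in whole kidney. Of the first 3 principal components over the 500 most variable genes, the first (43.7% of variance) went with treatment (r2 = 0.667) and the second (14.7%) with sequencing lane (r2 = 0.597). Lanes 4 to 8 each held libraries of both groups.

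1 library stood apart from the others with its label. In the library labelled PERC replicate 4 (replicate 4 below), Havcr1 was at 1.82 CPM and Cyp4a14 at 121 CPM, both inside the vehicle range, and 78.2% of the 1010 genes called over all 16 libraries lay inside the vehicle range there. In replicate 9 that share was 50%, and in the other 7 PERC libraries it was 6.14% to 22.7%. Over all 14614 genes tested, the share was 77.6% in replicate 4 and 37.6% to 65.97% in the others. Those libraries take part in making the calls, so their share among called genes is not independent of the choice of genes. Replicate 4 lay outside the vehicle range for some genes. Any further library, of either group, can lie outside the range of 7 others, and how often was not tested. All 9 PERC libraries, replicate 4 among them, lay above the vehicle range for 35 genes (0.239%) and below it for 9 (0.0616%). Whether this mouse received the doses cannot be told from the files. Results are given with all 16 libraries and without replicate 4. Since it was singled out by its own response, the values without it are a description, and their p-values are too small.

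Repeated PERC changed 1010 of 14614 genes tested (6.91%), with 655 higher (4.48%) and 355 lower (2.43%). The test was edgeR's quasi-likelihood test with a Benjamini-Hochberg adjusted p under 0.05. Without replicate 4, 1798 of 14597 genes were called (12.3%), with 1054 higher (7.22%) and 744 lower (5.1%), and 1007 of the 1010 were among them, none with the opposite sign. List counts without replicate 4, given below, stand beside these shares of 7.22% and 5.1%. The PERC libraries lay wholly above the vehicle libraries for 35 genes (0.239%), of which 31 were called, and wholly below for 9 genes (0.0616%), of which 7 were called. Without replicate 4 these were 172 genes (1.18%) and 84 genes (0.575%). Among called genes with a mean of at least 5 CPM, the largest rises were those of Cyp4a14, Havcr1, the organic anion transporter-like gene Gm6614, Ugt1a2 and Gc, and the largest fall that of the organic anion transporter Slc22a7. Genes of fatty acid oxidation, amino acid synthesis, tRNA charging, glutathione conjugation and the ribosome were among those that rose, and mitotic genes and several transporters of the proximal tubule among those that fell.

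Fat cell markers moved with treatment and are set beside these counts. Of 14 adipocyte markers, all tested, 7 were higher with PERC and none was lower (background 4.48%; median log2 fold change 1.74; 9 higher without replicate 4). Adipoq, which codes for the fat cell hormone adiponectin, was at 0.104 to 3.75 CPM (median 0.72) with vehicle and at 0.597 to 22.7 CPM (median 5.60) with PERC (log2 fold change 2.42, SE 0.57, adjusted p = 0.00551, and 2.60 without replicate 4). All PERC libraries other than replicate 4 (0.597 CPM) lay above the vehicle libraries. Retn, the gene of resistin, rose by 2.65 (SE 0.53) and Cidec, a lipid droplet gene, by 2.27 (SE 0.49), but Lipe (0.51, adjusted p = 0.0842), Fabp4 (0.62, adjusted p = 0.185) and Pparg (0.61, adjusted p = 0.0553) did not pass. The 14 markers summed to 255 to 361 CPM with vehicle and 321 to 835 CPM with PERC, with 321 CPM in replicate 4, and none was at 0 in all libraries. A covariate was made of the mean log2 level of only some adipocyte markers: Adipoq, Plin1, Cidec, Cfd, Retn and Lep. With this adipocyte covariate, 182 genes were called, and 1080 without replicate 4. The part of fat tissue in the results was otherwise not tested.

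**Figure D1:**
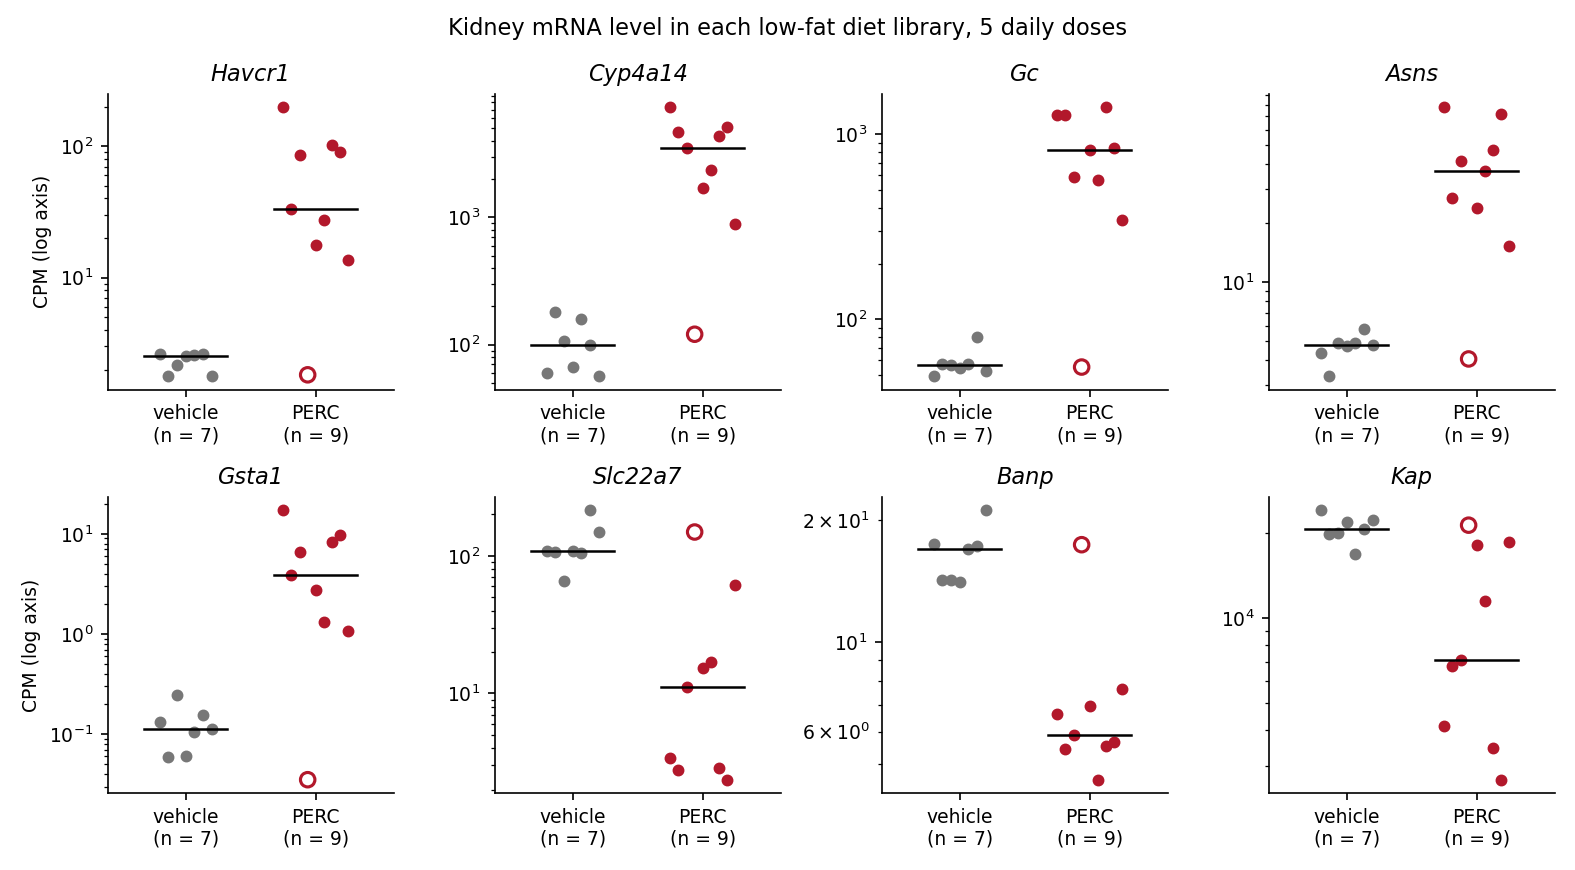
CPM on a log axis in each of the 7 vehicle (grey) and 9 PERC (red) libraries for 8 genes, with a bar at the group median and replicate 4 as an open circle. Replicate 4 sits with the vehicle libraries for Havcr1 (1.82 CPM) and Cyp4a14 (121 CPM), while the other 8 PERC libraries start at 13.7 and 892 CPM.

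Many genes under PPARA and of fatty acid oxidation rose. Of 54 tested, 31 were higher and none was lower (against 4.48% of all genes), with a median log2 fold change of 0.40 against 0.00039 over all genes. Without replicate 4, 35 were higher and 1 lower. With the adipocyte covariate, 12 passed the threshold.

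Cyp4a14, a microsomal omega-hydroxylase that adds oxygen to the end of fatty acids (chr4:115486200-115496142, minus strand, GRCm38), was at 56.5 to 182 CPM (median 99.3) with vehicle and 121 to 7369 CPM (median 3489) with PERC. Apart from replicate 4, every PERC library was at 892 CPM or more, above all vehicle libraries (log2 fold change 5.00, SE 0.57, adjusted p = 1.53e-07, and 5.16 without replicate 4). Cyp4a10 rose by 1.64 (SE 0.27), Cyp4a12b by 1.45 (SE 0.24) and Cyp4a31 by 0.82 (SE 0.16), while Cyp4a12a (0.54, adjusted p = 0.152) and Cyp4a32 (-0.45, adjusted p = 0.134) did not pass. The Cyp4a genes are close copies, and so are the thioesterase genes Acot1, Acot2 and Acot3. Reads that match several of them may therefore have been left out or assigned to the wrong gene.

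Fabp1, a fatty acid carrier of liver, was at 0.423 to 3.07 CPM (median 0.874) with vehicle and 1.19 to 14.1 CPM (median 8.67) with PERC (log2 fold change 2.67, SE 0.43, adjusted p = 5.68e-05, and 2.82 without replicate 4). Its vehicle values rest on few counts. Among peroxisomal genes 8 of 13 rose, among them the bifunctional enzyme Ehhadh (0.93, SE 0.17). Among mitochondrial genes 10 of 18 rose, with smaller changes, such as Acadvl, the very long chain acyl-CoA dehydrogenase (0.35, SE 0.064). The thioesterases Acot1 (1.39), Acot2 (1.40) and Acot3 (1.27) rose as well (3 of 6, SE 0.26, 0.24 and 0.25). Of the 11 genes of uptake, activation and fuel choice 6 rose, including Acsl1, which activates fatty acids (0.95, SE 0.15), and Pdk4, which restrains glucose oxidation (1.54, SE 0.39). Other known targets did not pass: the carnitine transferase Cpt1a was at 0.025 (SE 0.062), the fatty acid receptor Cd36 at -0.37 (SE 0.14) and the secreted lipase inhibitor Angptl4 at 0.34 (SE 0.20).

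**Figure D2:**
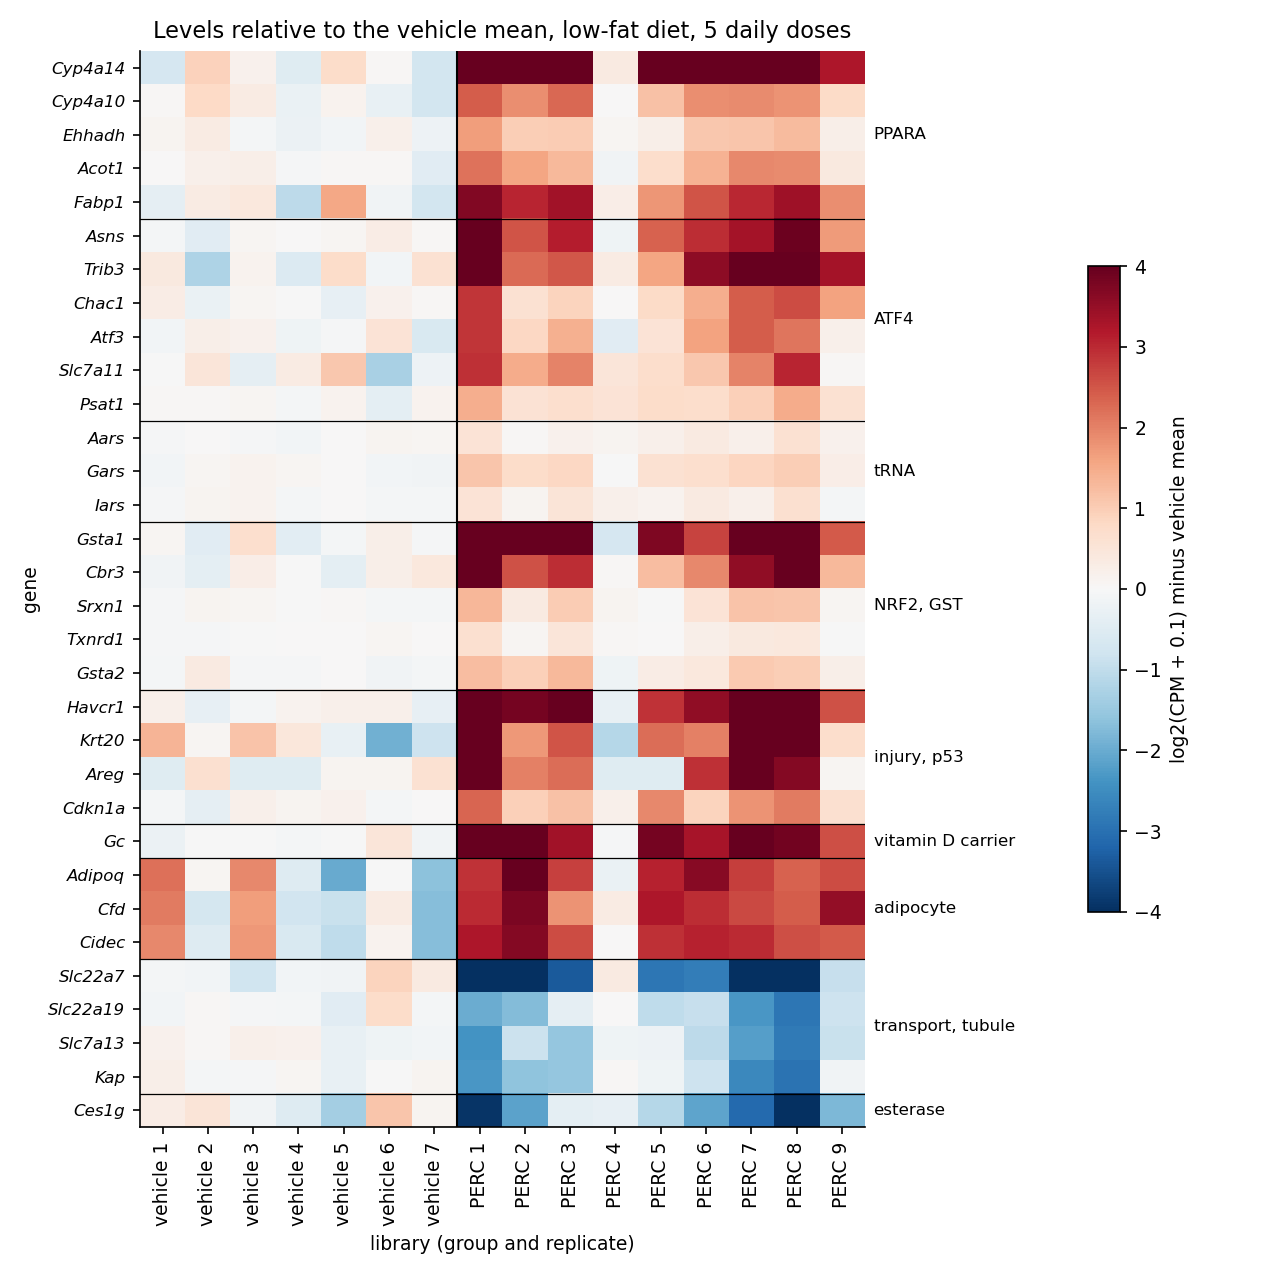
Each column is a library and each row a gene, coloured by log2(CPM + 0.1) minus the vehicle mean of that gene, with the colour limit at 4 in both directions. Rows are grouped by role, and the column of replicate 4 stays near the vehicle colour in most rows, unlike those of the other 8 PERC libraries.

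Many ATF4 targets in amino acid supply rose. Of 34 tested, 17 were higher and none was lower (background 4.48%), with a median log2 fold change of 0.55, and 19 were higher and 1 lower without replicate 4. Leaving out each library in turn gave 16 to 19 higher, and 14 were higher with the adipocyte covariate. Among the enzymes of amino acid and one-carbon synthesis 9 of 13 rose, and among the factors of transcription and feedback 4 of 11. Atf4 itself, whose protein is known to be set mostly at translation, was at 0.16 (SE 0.09, adjusted p = 0.311). Of 19 tested chaperones of the endoplasmic reticulum none was higher and 1, the disulfide isomerase Pdia6, was lower (-0.27, SE 0.069).

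The promoters of 3 of these genes are shown because they hold the letters to which ATF4 and its partners are known to bind. They run from 250 bases before to 50 after the start of transcription, on the gene's own strand, 5′ to 3′, from RefSeq on GRCm38.p6. Capitals mark the match to TGATGNAA, the composite element of ATF4 and C/EBP factors, which was searched on both strands. Asns lies at chr6:7693160-7693459 (minus strand), Trib3 at chr2:152344011-152344310 (minus strand) and Chac1 at chr2:119350992-119351291 (plus strand).
Asns promoter: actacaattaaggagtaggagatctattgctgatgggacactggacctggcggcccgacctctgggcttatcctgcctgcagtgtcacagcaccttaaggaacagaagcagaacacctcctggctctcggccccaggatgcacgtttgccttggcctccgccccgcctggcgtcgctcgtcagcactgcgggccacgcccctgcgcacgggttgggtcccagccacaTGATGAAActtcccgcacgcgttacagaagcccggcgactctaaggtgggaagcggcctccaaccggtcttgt
Trib3 promoter: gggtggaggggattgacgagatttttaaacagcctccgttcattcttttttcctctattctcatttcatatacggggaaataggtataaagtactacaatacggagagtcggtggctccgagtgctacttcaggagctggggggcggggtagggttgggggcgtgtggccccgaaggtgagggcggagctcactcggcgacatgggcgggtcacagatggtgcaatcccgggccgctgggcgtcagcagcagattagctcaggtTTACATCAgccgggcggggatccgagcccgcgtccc
Chac1 promoter: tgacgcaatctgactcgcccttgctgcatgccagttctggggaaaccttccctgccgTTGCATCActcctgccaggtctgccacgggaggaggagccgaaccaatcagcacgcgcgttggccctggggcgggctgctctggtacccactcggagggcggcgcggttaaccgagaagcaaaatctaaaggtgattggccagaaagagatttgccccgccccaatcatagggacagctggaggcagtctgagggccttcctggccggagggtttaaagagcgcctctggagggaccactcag

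The match starts at base -23 from the start in Asns, 15 in Trib3 and -193 in Chac1. Of the 34 tested members, 30 had a promoter in the table and 8 held the letters, among them 6 of the 14 with a promoter that rose. Of the 20 tRNA synthetase genes described next, 12 had a promoter and 5 held the letters, among them 3 of the 8 with a promoter that rose. The letters stood in 3.97% of all 32851 promoters, and in 2.86% of genes tested. Below are matches of 5 other genes that rose, with 10 bases on each side. A match is a description of the letters, and no binding was measured.
Atf3, chr1:191183426-191183453, minus strand: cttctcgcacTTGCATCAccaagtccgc
Slc7a11, chr3:50443662-50443689, minus strand: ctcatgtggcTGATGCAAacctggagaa
Slc7a11, chr3:50443643-50443670, minus strand: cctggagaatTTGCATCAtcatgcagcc
Pck2, chr14:55540153-55540180, plus strand: gccttcaaagTTACATCAgtatcttaca
Gars, chr6:55037961-55037988, plus strand: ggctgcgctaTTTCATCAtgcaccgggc
Iars, chr13:49682127-49682154, plus strand: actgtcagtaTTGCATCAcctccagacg

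Asns, which makes asparagine and whose match lies just before its start, was at 3.32 to 5.76 CPM (median 4.80) with vehicle and 4.07 to 78.2 CPM (median 36.9) with PERC. Without replicate 4 (4.07 CPM), the lowest PERC library was at 15.3 CPM, above all vehicle libraries (log2 fold change 3.03, SE 0.34, adjusted p = 1.17e-07, and 3.19 without replicate 4). Trib3, a pseudokinase that restrains ATF4, was at 0.297 to 1.46 CPM (median 0.925) with vehicle and 1.09 to 25.3 CPM (median 9.26) with PERC (log2 fold change 3.60, SE 0.51, adjusted p = 9.07e-06, and 3.76 without replicate 4). Replicate 4, at 1.09 CPM, lay inside the vehicle range and the other PERC libraries above it. Chac1, a glutathione-degrading enzyme, rose by 1.86 (SE 0.46), and Atf3, an ATF4-driven factor, by 1.66 (SE 0.37).

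Atf5, a factor of the mitochondrial stress response, rose by 2.37 (SE 0.34, adjusted p = 9.07e-06). The mitochondrial one-carbon enzymes Aldh1l2 and Mthfd2 rose by 2.23 (SE 0.29) and 2.12 (SE 0.28), and the serine synthesis enzymes Phgdh and Psat1 by 1.43 (SE 0.33) and 0.90 (SE 0.15). For Psat1 the groups did not overlap at all: the 7 vehicle libraries were at 34.7 to 50.3 CPM (median 47.4) and the 9 PERC libraries at 66.2 to 127.9 CPM (median 74.4). Proline synthesis gene Aldh18a1 rose by 1.29 (SE 0.23) and Pck2, the mitochondrial form of PEP carboxykinase, by 1.02 (SE 0.16). Of 7 amino acid transporters 3 rose, including the cystine importer Slc7a11 (1.96, SE 0.48) and the cationic carrier Slc7a1 (0.69, SE 0.13). Stc2, a secreted glycoprotein, rose by 1.32 (SE 0.24), and Vegfa was at -0.18 (SE 0.071, adjusted p = 0.122).

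**Figure D3:**
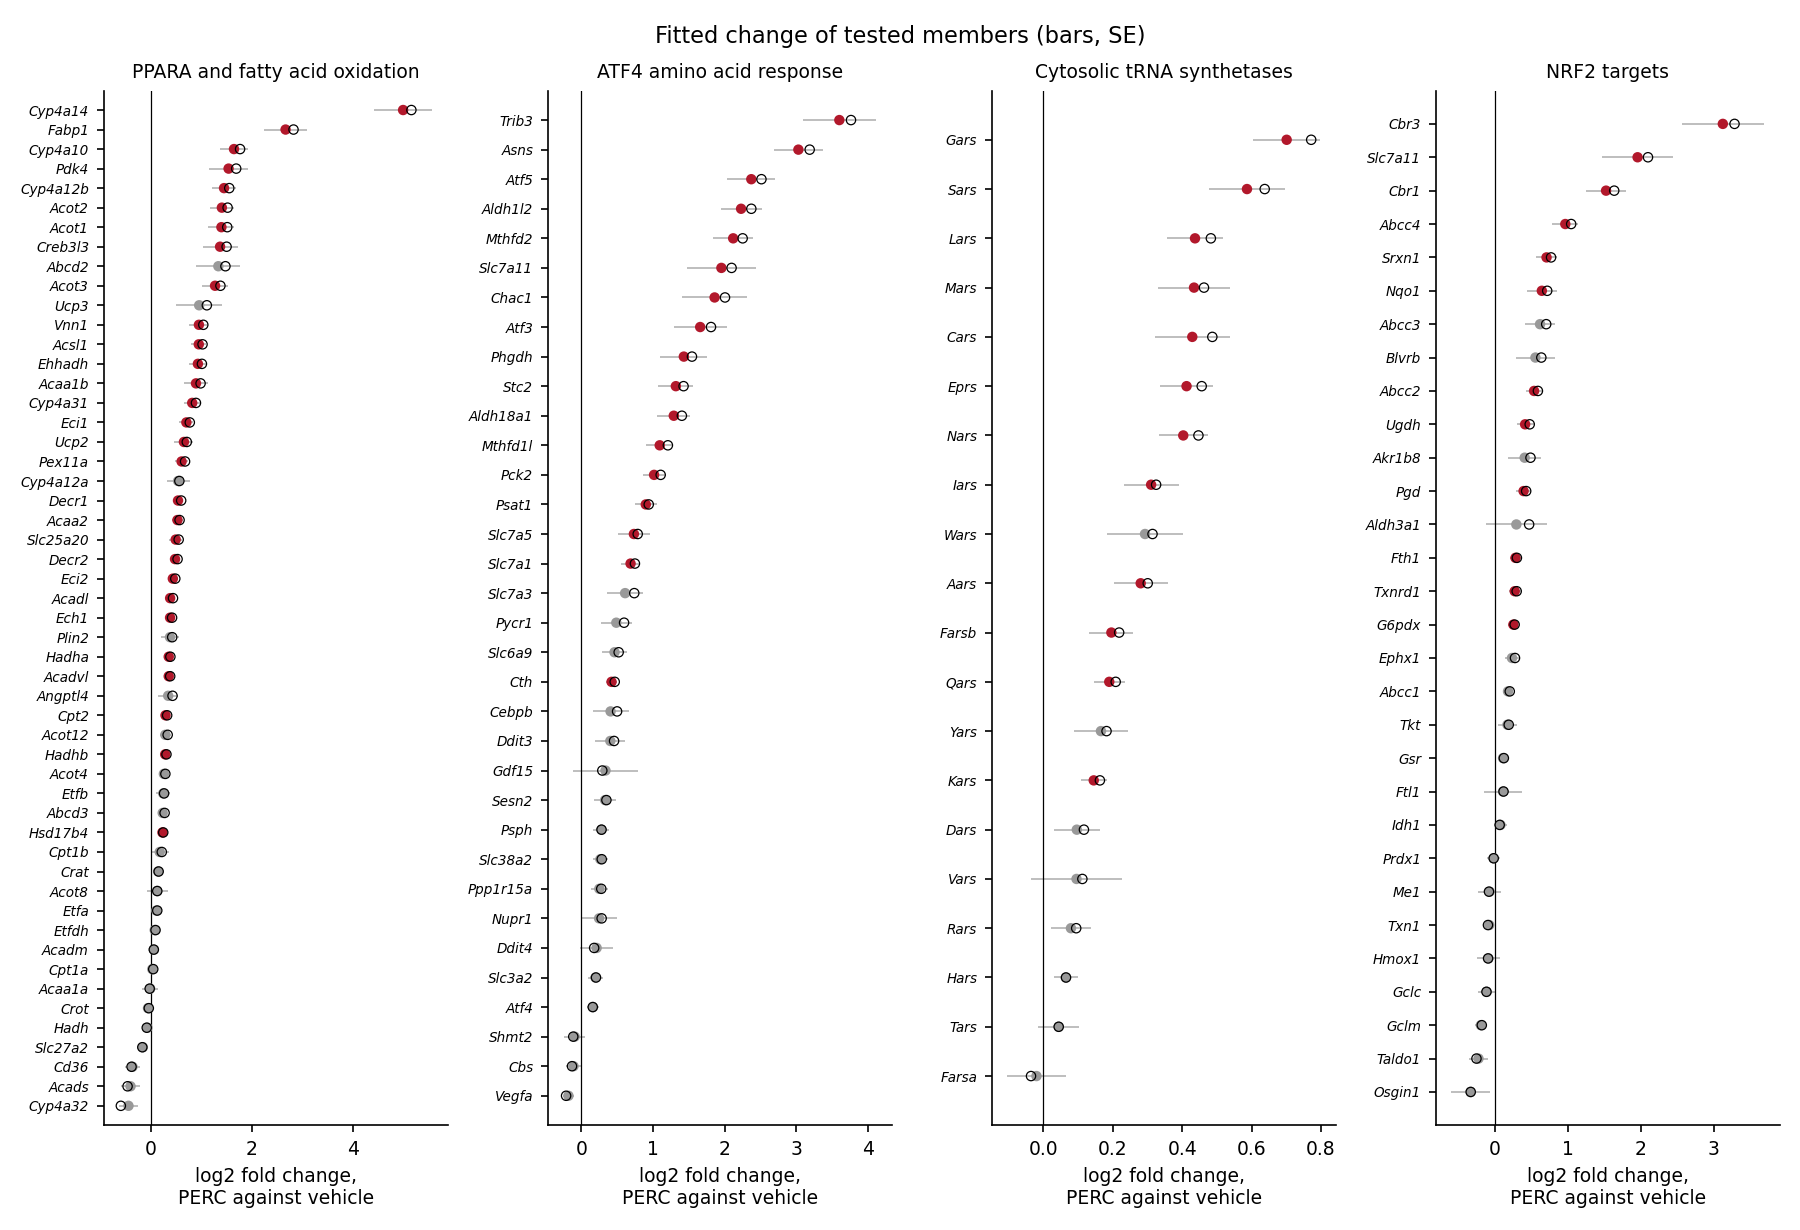
Log2 fold change of PERC against vehicle with its SE for tested members reported here of 4 lists (PPARA, ATF4, tRNA synthetases and NRF2), red where called, grey where not, and as an open black mark without replicate 4. In each list the called members lie above 0, and values without replicate 4 lie close to those with it, as for Asns (3.03 and 3.19).

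The cytosolic tRNA synthetases, which load amino acids onto tRNA, rose in part and by small amounts. Of 20 tested, 12 were higher and none was lower (background 4.48%; median log2 fold change 0.24), and 12 were higher without replicate 4. Gars was at 71.3 to 87.7 CPM (median 79.5) with vehicle and 77.7 to 169.8 CPM (median 130.3) with PERC (log2 fold change 0.70, SE 0.096, adjusted p = 3.67e-06, and 0.77 without replicate 4). Replicate 4 was at 77.7 CPM and the lowest of the other PERC libraries at 95.3 CPM. Lars rose by 0.44 (SE 0.08), Eprs by 0.41 (SE 0.077) and Nars by 0.40 (SE 0.07). Aars missed the threshold without PERC replicates 1 or 8 or vehicle replicate 4 (highest adjusted p = 0.071), where its change over all libraries was 0.28 (SE 0.078). The counts fell to 7 with the adipocyte covariate and to 6 in a fit of the LFD repeated libraries alone.

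Ribosomal protein genes, a family chosen by symbol after its values were seen, moved with them. Of 73 tested genes of the cytosolic ribosome, 36 were higher and none was lower, with a median log2 fold change of 0.37, and 40 were higher without replicate 4. Their summed level was 9415 to 10264 CPM with vehicle and 9789 to 16413 CPM with PERC. Replicate 4 held the lowest of these sums, and the other PERC libraries were at 11307 CPM or more, above every vehicle library. Rpl4, a protein of the large subunit, was at 622 to 715 CPM (median 659) with vehicle and 657 to 1093 CPM (median 998) with PERC (log2 fold change 0.52, SE 0.071, adjusted p = 3.67e-06, and 0.57 without replicate 4). The groups did not overlap for Rps3, of the small subunit, at 282 to 324 CPM (median 298) and 330.4 to 472 CPM (median 391) (log2 fold change 0.41, SE 0.062, adjusted p = 2.53e-05, and 0.44 without replicate 4). Of 52 genes with an Eif symbol, which are initiation factors and kinases and inhibitors that act on them, 16 were higher. Of 9 genes with an Eef symbol, elongation factors and enzymes that modify them, 4 were higher, and of 37 proteasome genes 8, with none lower in these 3 sets of symbols. Eef1a1, the elongation factor that brings charged tRNA to the ribosome, rose by 0.55 (SE 0.082). Of 77 genes of the mitochondrial ribosome 6 were higher and 1 lower, shares that stand beside a background of 4.48% and 2.43%.

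Glutathione transferases and targets of NRF2, a transcription factor of the response to electrophiles, rose in part. Of 19 tested transferases 9 were higher and none lower (background 4.48%, median 0.34). Of 30 tested NRF2 targets 12 were higher and none lower (median 0.27). Without replicate 4, 11 and 15 were higher, beside a background of 7.22%. Over the fits that left out 1 library, the counts ran from 6 to 11 and from 8 to 15. They were 3 and 6 with the adipocyte covariate, and 6 and 5 in a fit of the LFD repeated libraries alone. Gsta1, a transferase of alkenals and other electrophiles, was at 0.0594 to 0.247 CPM (median 0.112) with vehicle and 0.0351 to 17.1 CPM (median 3.92) with PERC (log2 fold change 5.42, SE 0.79, adjusted p = 1.49e-05, and 5.61 without replicate 4). The vehicle values rest on a few counts per library, and replicate 4, at 0.0351 CPM, was the lowest of all 16. Gm3776, a near copy of Gsta1, rose by 5.30 (SE 0.82). Reads that match both may have been left out or assigned to the wrong gene, so the pair cannot be told apart with certainty. The more abundant Gsta2 was at 86.6 to 123 CPM (median 91.97) with vehicle and at 85.1 to 236 CPM (median 183) with PERC (log2 fold change 0.77, SE 0.18, adjusted p = 0.00534, and 0.86 without replicate 4), and the groups overlapped.

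Gstm6 (1.06, SE 0.21), Gstm7 (0.69, SE 0.12) and the membrane form Mgst1 (0.91, SE 0.21) rose too. The carbonyl reductase Cbr3 was at 0.831 to 1.51 CPM (median 1.09) with vehicle and 1.16 to 27.4 CPM (median 7.04) with PERC (log2 fold change 3.12, SE 0.56, adjusted p = 0.000332, and 3.28 without replicate 4). It lay above the vehicle range in all PERC libraries but replicate 4 (1.16 CPM). Cbr1 rose by 1.52 (SE 0.28), the export pump Abcc4 by 0.97 (SE 0.18) and sulfiredoxin Srxn1 by 0.71 (SE 0.14). Nqo1, the quinone reductase often used to read NRF2 activity, was called at 0.65 (SE 0.20, adjusted p = 0.0426) and was called in only 4 of the 16 fits that left out 1 library, with a highest adjusted p of 0.108. Other classical targets did not pass: heme oxygenase Hmox1 was at -0.085 (SE 0.15), and the subunits of glutathione synthesis Gclc and Gclm at -0.11 (SE 0.12) and -0.19 (SE 0.081). The letters TGACNNNGC, the core to which NRF2 is known to bind, stood in 10 of 24 members with a promoter and in 7 of the 12 of these that rose, against 17% of genes tested. They also stood in 10 of 30 promoters of the ATF4 list. Of 2 more motifs searched, on both strands, the PPAR direct repeat stood in 1 of 39 promoters of the PPARA list, that of Fabp1, against 0.303% of genes tested. The sterol element TCACNCCAC stood in 1 of 18 promoters of the cholesterol synthesis list and in 0 of the 5 of these that rose, against 1.45% of genes tested.

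Later steps of the glutathione route to cysteine conjugates gave fewer calls. Of 19 tested genes of mercapturate formation and beta-lyase cleavage 2 were higher and none lower (background 4.48%), and 3 were higher and 1 lower without replicate 4. The first 2 were Nat8f5, an N-acetyltransferase-like gene (1.136, SE 0.24), and the aminotransferase Got2 (0.16, SE 0.051). Got2 missed the threshold without PERC replicates 1, 2, 7 or 8 or vehicle replicates 1, 2, 3, 4, 5, 6 or 7 (highest adjusted p = 0.105). Gamma-glutamyl transferase Ggt1, which opens the route at the brush border, was at -0.21 (SE 0.11, adjusted p = 0.299), and the beta-lyase Kyat3 at 0.20 (SE 0.076, adjusted p = 0.0995). Cyp2e1, the P450 most often tied to oxidation of chlorinated solvents, was at 1203 to 1787 CPM (median 1448) with vehicle and 1352 to 2755 CPM (median 1717) with PERC. The groups overlapped and the change did not pass (log2 fold change 0.31, SE 0.13, adjusted p = 0.133, and 0.35 without replicate 4). Of 21 P450 and flavin genes 1 was higher, Fmo4 (0.34, SE 0.10), and 1 lower, Cyp2a4 (-0.38, SE 0.11), and 3 were lower without PERC replicate 4 or 5 and 2 without vehicle replicate 6. Fmo4 missed the threshold without PERC replicates 1, 2, 3, 6, 7 or 8 or vehicle replicates 1, 3, 5, 6 or 7 (highest adjusted p = 0.108). Cyp2a4 missed the threshold without PERC replicates 1, 7 or 8 or vehicle replicates 1 or 4 (highest adjusted p = 0.0754).

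Other enzymes of aldehyde, glucuronide and ester metabolism changed in both directions. Ugt1a2, a glucuronosyltransferase (chr1:88200601-88218997, plus strand), was at 1.31 to 3.65 CPM (median 1.98) with vehicle and 1.79 to 78.9 CPM (median 31.9) with PERC (log2 fold change 3.95, SE 0.78, adjusted p = 0.000967, and 4.12 without replicate 4). It exceeded the vehicle range in 6 of the 9 PERC libraries. Of 13 tested transferases of this family 4 were higher and 2 lower (backgrounds 4.48% and 2.43%), the latter Ugt2b38 (-0.71, SE 0.19) and Ugt3a1 (-1.03, SE 0.18). The higher count was 2 without PERC replicate 1 or without vehicle replicate 4. With the adipocyte covariate 1 was higher and 1 lower, and in a fit of the LFD repeated libraries alone 2 and 1. The Ugt1a genes share their last exons, so reads from these may have been left out or assigned to the wrong gene.

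Of 14 tested aldehyde dehydrogenases 3 were higher and 1 lower (backgrounds 4.48% and 2.43%, also for the carboxylesterases below). Aldh1a1 (2.21, SE 0.36), which makes retinoic acid, Aldh1a7 (1.83, SE 0.25), its close copy, and Aldh1b1 (0.70, SE 0.15) rose. Aldh1a1 ranged from 7.82 to 17.9 CPM (median 12.5) in the 7 vehicle libraries and from 10.9 to 100.04 CPM (median 52.5) in the 9 PERC libraries, with replicate 4 at 10.9 CPM. Aldh3a2, of fatty aldehydes, fell by 0.26 on the log2 scale (SE 0.081). Aldh3a2 missed the threshold without PERC replicates 1, 2, 7 or 8 or vehicle replicates 1, 2 or 6 (highest adjusted p = 0.0969). Of 9 tested carboxylesterases 1 was higher, Ces2e (0.46, SE 0.13), and 3 were lower, Ces1g, Ces1c and Ces1f. With the adipocyte covariate none was called in either direction, and in a fit of the LFD repeated libraries alone none was lower. Ces1g was at 20.04 to 112 CPM (median 56.3) with vehicle and 2.83 to 41.7 CPM (median 11.9) with PERC (log2 fold change -1.76, SE 0.40, adjusted p = 0.0047, and -2.06 without replicate 4), below the vehicle range in 6 of 9 PERC libraries. Ces1c fell too (-1.67, SE 0.48), although Ces1c missed the threshold without PERC replicate 7 or vehicle replicate 5 (highest adjusted p = 0.16).

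Havcr1, the gene of kidney injury molecule 1 (chr11:46735080-46779578, plus strand), was at 1.78 to 2.62 CPM (median 2.54) with vehicle and 1.82 to 199 CPM (median 33.3) with PERC. PERC replicates 1 to 9 were at 199, 33.3, 85.7, 1.82, 17.6, 27.4, 103, 90.4 and 13.7 CPM. All but replicate 4 were above the vehicle libraries (log2 fold change 4.78, SE 0.69, adjusted p = 1.24e-05, and 4.94 without replicate 4), and within each of the 5 lanes the PERC libraries were higher, by 2.59 to 5.15 on the log2 scale. Most other genes of tubular injury and repair were not called. Of 28 tested 3 were higher and none lower, beside a background of 4.48%, and 5 were higher without PERC replicate 2, 4 or 9.

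The other members that rose were Krt20, a keratin of injured tubule, and Areg, the growth factor amphiregulin. Krt20 was at 0 to 0.872 CPM (median 0.297) with vehicle and 0.0702 to 9.35 CPM (median 1.68) with PERC (log2 fold change 3.25, SE 0.70, adjusted p = 0.00242, and 3.44 without replicate 4), and the groups overlapped in replicate 4 (0.0702 CPM) and 1 more library. Areg was at 0 to 0.119 CPM (median 0.0514) with vehicle and 0 to 3.69 CPM (median 0.567) with PERC (log2 fold change 4.41, SE 0.92, adjusted p = 0.00185, and 4.62 without replicate 4). Lcn2, the gene of the injury marker NGAL, was at 1.09 to 2.26 CPM (median 1.87) with vehicle and 1.23 to 9.66 CPM (median 2.68) with PERC, and did not pass (log2 fold change 0.98, SE 0.48, adjusted p = 0.234, and 1.11 without replicate 4). Spp1 (osteopontin) was at 0.058 (SE 0.11), Vcam1, an adhesion molecule of injured tubule, at 0.20 (SE 0.12) and the receptor Tnfrsf12a at 0.57 (SE 0.18, adjusted p = 0.0509).

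Some targets of p53 rose and some genes of mitosis fell. Of 29 tested p53 targets 7 were higher and none lower (background 4.48%; median 0.23), and 10 were higher without replicate 4, but 3 with the adipocyte covariate and 2 in a fit of the LFD repeated libraries alone. Cdkn1a, the cell cycle inhibitor p21, was at 4.21 to 6.29 CPM (median 5.47) with vehicle and 6.18 to 27.7 CPM (median 12.4) with PERC (log2 fold change 1.49, SE 0.34, adjusted p = 0.00405, and 1.601 without replicate 4). Only replicate 4, at 6.18 CPM, lay inside the vehicle range. Eda2r, a death receptor, rose by 1.31 (SE 0.29), Ccng1 by 0.48 (SE 0.11) and Btg2 by 0.53 (SE 0.12). Phlda3, a repressor of AKT, rose by 0.70 (SE 0.19), but Phlda3 missed the threshold without PERC replicates 1 or 8 or vehicle replicate 7 (highest adjusted p = 0.0716). Mdm2, the p53 ubiquitin ligase, was at 0.16 (SE 0.058, adjusted p = 0.0813) and the death gene Bax at -0.04 (SE 0.14).

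Of 40 tested cell cycle genes 9 were lower and none higher (background 2.43%; median -0.42), and 11 were lower without replicate 4. All 9 were among the 25 genes of G2 and mitosis, and none of the 15 genes of S phase was called. Top2a, the topoisomerase of dividing cells, was at 3.07 to 9.31 CPM (median 5.19) with vehicle and 0.943 to 3.97 CPM (median 2.35) with PERC (log2 fold change -1.25, SE 0.25, adjusted p = 0.000771, and -1.25 without replicate 4). The count was unstable: it was 1 without vehicle replicate 3, 2 without vehicle replicate 1, 4 without PERC replicate 7 or 8, and 5 without PERC replicate 1 or vehicle replicate 6. It was 3 with the adipocyte covariate and 1 in a fit of the LFD repeated libraries alone. Mki67, the proliferation marker Ki-67, fell (-0.996, SE 0.27), but Mki67 missed the threshold without vehicle replicates 1 or 3 (highest adjusted p = 0.0593). Ccnb2 missed the threshold without vehicle replicate 3 (highest adjusted p = 0.0602), where it was at -1.05 over all libraries.

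Transporters of the proximal tubule fell in part. Slc22a7, an organic anion transporter (chr17:46432183-46438457, minus strand), was at 65.7 to 213 CPM (median 107) with vehicle and 2.36 to 148.8 CPM (median 11.1) with PERC. The highest PERC value was that of replicate 4, and the other 8 libraries, the highest at 60.9 CPM, all lay below the vehicle range (log2 fold change -2.002, SE 0.59, adjusted p = 0.0304, and -3.02 without replicate 4). Slc22a7 missed the threshold without PERC replicates 1, 2, 3, 5, 6, 7 or 8 or vehicle replicates 6 or 7 (highest adjusted p = 0.0695). Of 26 tested organic ion transporters 2 were higher and 6 lower (backgrounds 4.48% and 2.43%), and 3 and 7 without replicate 4. The count of lower ones was 2 without PERC replicate 1, 3, 7 or 8 or vehicle replicate 6, and 3 without vehicle replicate 2, 3, 4 or 7. It was 0 with the adipocyte covariate or in a fit of the LFD repeated libraries alone, where 36 and 80 of all genes were lower. Slc22a19 was at 89.2 to 203 CPM (median 118) with vehicle and 16.6 to 125.2 CPM (median 61.6) with PERC (log2 fold change -1.11, SE 0.27, adjusted p = 0.00816, and -1.34 without replicate 4). The pair that rose were Abcb1b, a multidrug export pump (1.69, SE 0.26), and Slc17a1, a phosphate and urate carrier (0.30, SE 0.075). The main organic anion transporter Slc22a6 was at -0.26 (SE 0.13, adjusted p = 0.263).

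Of 34 tested genes of proximal tubule function 7 were lower and none higher (background 2.43%; median -0.19), and 10 were lower without replicate 4. The count was 3 without PERC replicate 1 and 4 without PERC replicate 8 or vehicle replicate 7. With the adipocyte covariate or in a fit of the LFD repeated libraries alone the count was 0, where 36 and 80 of all genes were lower. Slc7a13, an aspartate and glutamate carrier of the late proximal tubule, was at 952 to 1330.3 CPM (median 1192) with vehicle and 165 to 1036 CPM (median 556) with PERC (log2 fold change -1.10, SE 0.27, adjusted p = 0.00862, and -1.28 without replicate 4). Slc1a1, a glutamate carrier, fell by 0.27 (SE 0.065) and Acsm2, a mitochondrial acyl-CoA synthetase, by 0.54 (SE 0.15) on the log2 scale. Kap, an androgen-dependent protein of the mouse kidney, was at 16902 to 24051 CPM (median 20594) with vehicle and 2677 to 21333 CPM (median 7106) with PERC (log2 fold change -0.99, SE 0.32, adjusted p = 0.0451, and -1.20 without replicate 4). Kap missed the threshold without PERC replicates 1, 2, 3, 6, 7 or 8 or vehicle replicates 1, 2, 3, 4, 5, 6 or 7 (highest adjusted p = 0.0973). The phosphate carrier Slc34a1 was at -0.25 (SE 0.14, adjusted p = 0.3), the glucose carrier Slc5a2 at -0.21 (SE 0.16) and the endocytosis receptor Cubn at -0.17 (SE 0.088).

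The 34 genes summed to 26542 to 57898 CPM with PERC, and the highest of the PERC libraries was replicate 4. Kap alone makes up a large part of the fall of this sum. Without Kap the other 33 genes summed to 31421 to 36853 CPM (median 34972) with vehicle and 23865 to 36565 CPM (median 27848) with PERC. In whole tissue, fewer cells of a type and less RNA per cell cannot be told apart. Other segments gave few calls: no marker of thick limb (8 tested), distal convoluted tubule (7), intercalated cells (9), podocytes (8) or endothelium (9) was called. These counts of 0 are from edgeR, DESeq2 called none either, and 5 of the 41 had an unadjusted p under 0.05. Without replicate 4, 1 intercalated cell marker and 1 podocyte marker were lower, and a podocyte marker was also lower without PERC replicate 3, PERC replicate 9 or vehicle replicate 3 and an intercalated cell marker without PERC replicate 9. Umod, the thick limb gene of uromodulin, was at 3654 to 4786 CPM (median 4379) with vehicle and 3463 to 4999 CPM (median 4407) with PERC (0.023, SE 0.072). Of 8 principal cell markers 1, the water channel Aqp4, was lower (-0.66, SE 0.21; background 2.43%). Aqp4 missed the threshold without PERC replicates 1, 3, 7, 8 or 9 or vehicle replicates 2, 3 or 4 (highest adjusted p = 0.105).

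Gc codes for the vitamin D binding protein, a plasma carrier made mainly by liver, and had the smallest p-value of all genes tested. It was at 49.3 to 80.1 CPM (median 56.7) with vehicle and 55.3 to 1401 CPM (median 816) with PERC (chr5:89417522-89457898, minus strand). Replicate 4 was at 55.3 CPM, inside the vehicle range, and the other 8 PERC libraries started at 345 CPM (log2 fold change 3.77, SE 0.37, adjusted p = 7.87e-09, and 3.93 without replicate 4). None of 8 tested liver markers was called by edgeR or DESeq2, with 1 at an unadjusted p under 0.05: albumin gene Alb was at -0.55 (SE 0.38) and Apoa2 at -0.27 (SE 0.22). Of 13 tested genes of vitamin D and phosphate handling Gc alone was called (background 4.48% higher and 2.43% lower). Without replicate 4, 3 were higher and 2 lower (background 7.22% and 5.1%). Besides, 2 were higher without vehicle replicate 1, and 1 was lower without PERC replicate 9. Cyp27b1, which makes active vitamin D in the proximal tubule, was at 0.98 (SE 0.34, adjusted p = 0.0745), and Kl, the FGF23 co-receptor klotho, at -0.37 (SE 0.14).

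Cholesterol synthesis rose at some steps. Of 26 tested genes 9 were higher and none lower (background 4.48%; median 0.16), and 9 were higher and 1 lower without replicate 4. Fdps, of farnesyl diphosphate synthesis, was at 16.3 to 24.6 CPM (median 22.3) with vehicle and 27.2 to 56.8 CPM (median 35.7) with PERC (log2 fold change 0.93, SE 0.16, adjusted p = 0.000101, and 0.99 without replicate 4). Insig1, a sterol sensor of the endoplasmic reticulum, rose by 1.10 (SE 0.17) and squalene synthase Fdft1 by 0.49 (SE 0.079). The early enzyme Hmgcs1 was at -0.025 (SE 0.12) and did not pass. With the adipocyte covariate 3 members were higher. Lpcat3, a phospholipid remodelling enzyme that belongs to no list and was chosen after its values were seen, did not overlap between groups, at 165 to 178 CPM (median 169.6) and 183 to 319 CPM (median 263) (log2 fold change 0.66, SE 0.078, adjusted p = 2.5e-07, and 0.71 without replicate 4).

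Of 19 tested lipogenesis genes 3 were higher and 2 lower (backgrounds 4.48% and 2.43%). The desaturase Fads1 (0.55, SE 0.13) and the triglyceride synthesis gene Dgat1 (0.24, SE 0.053) were among those that rose. The acetyl-CoA synthetase Acss2 (-0.39, SE 0.11) and the sugar sensor Mlxipl (-0.32, SE 0.099) fell, but Acss2 missed the threshold without PERC replicates 1, 7 or 8 (highest adjusted p = 0.0656), and Mlxipl missed the threshold without PERC replicates 1, 3, 6, 7 or 8 or vehicle replicates 1, 4, 6 or 7 (highest adjusted p = 0.0972). Of 11 tested genes of gluconeogenesis and glutamine use 2 were higher, Pck1, which makes phosphoenolpyruvate (log2 fold change 1.02, SE 0.22, adjusted p = 0.00255, and 1.11 without replicate 4), and the glutamine carrier Slc38a3 (log2 fold change 0.92, SE 0.24, adjusted p = 0.0154, and 1.002 without replicate 4). Pck1 ranged from 1058 to 2195 CPM (median 1869.6) in the 7 vehicle libraries and from 1536 to 5552 CPM (median 3822) in the 9 PERC libraries, and the groups overlapped.

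Some acute phase genes rose, while chemokines, cytokines and immune markers gave few or no calls. Of 15 tested genes of IL-6 signalling and the acute phase 6 were higher and none lower (background 4.48%), and 7 without replicate 4, but 3 were higher without PERC replicate 5, 7 or 8 or vehicle replicate 2, 4, 5, 6 or 7, and 1 with the adipocyte covariate. Hp, the gene of haptoglobin, was at 0.242 to 2.18 CPM (median 0.566) with vehicle and 0.877 to 14.8 CPM (median 3.10) with PERC (log2 fold change 2.06, SE 0.54, adjusted p = 0.0141, and 2.22 without replicate 4). Ceruloplasmin gene Cp rose by 0.93 (SE 0.17) and Osmr, the oncostatin M receptor, by 0.74 (SE 0.17). None of 9 tested chemokines and cytokines was called by edgeR or DESeq2, with 3 at an unadjusted p under 0.05, but 2 were higher without PERC replicate 3 and 1 without PERC replicate 7 or 9. The chemokine Cxcl1 was at 0.77 (SE 0.27, adjusted p = 0.0692).

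Of 11 macrophage markers 1 was lower, Csf1r, the receptor of colony stimulating factor (log2 fold change -0.63, SE 0.11, adjusted p = 0.000101, and -0.71 without replicate 4), and none was higher, although 2 were higher without replicate 4 and 1 without PERC replicate 2, PERC replicate 8 or vehicle replicate 1. The macrophage markers summed to 157 to 181 CPM with vehicle and 112 to 181 CPM with PERC, the highest in replicate 4. Cd8a was the only one of 8 tested lymphocyte and neutrophil markers called (-0.69, SE 0.22). Cd8a missed the threshold without PERC replicates 1, 5, 7, 8 or 9 or vehicle replicates 1, 3, 6 or 7 (highest adjusted p = 0.0994). Of 9 markers of fibroblasts and smooth muscle 2 were higher, Dcn, a matrix proteoglycan (0.70, SE 0.16), and Pdgfra (0.37, SE 0.11), and their summed level was 301 to 385 CPM with vehicle and 359 to 538 CPM with PERC. Pdgfra missed the threshold without PERC replicates 1, 3, 5 or 7 or vehicle replicates 1, 2, 6 or 7 (highest adjusted p = 0.13). Of 15 matrix genes 1 was higher, the collagen crosslinking enzyme Lox (0.93, SE 0.24), and 3 were higher without vehicle replicate 3 or PERC replicate 7 and 2 without PERC replicate 2 or 4 or vehicle replicate 1. Cry2 was the only one of 19 clock genes called (0.44, SE 0.10), and Pdk4, also counted above in the PPARA list, the only one of 12 glucocorticoid targets. Without replicate 4 these counts were 3 and 2, and without PERC replicate 9 they were 2 and 2. The list counts of this paragraph over all 16 libraries stand beside a background of 4.48% higher and 2.43% lower. Those without replicate 4 stand beside 7.22% and 5.1%. Of 9 adrenal markers 4 (Cyp11b1, Cyp11b2, Cyp21a1 and Th) were at 0 in all 16 libraries, and so were 5 of 7 red cell markers, all globin genes. The 7 red cell markers still summed to 8.39 to 13.9 CPM with vehicle and 6.69 to 15.1 CPM with PERC. Why the globin genes were at 0 was not tested, so this does not show that blood was absent. With the adipocyte covariate, the lists of clock, glucocorticoid, lipogenesis, gluconeogenesis, matrix, mercapturate, fibroblast, principal cell and endoplasmic reticulum chaperone genes held no call.

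**Figure D4:**
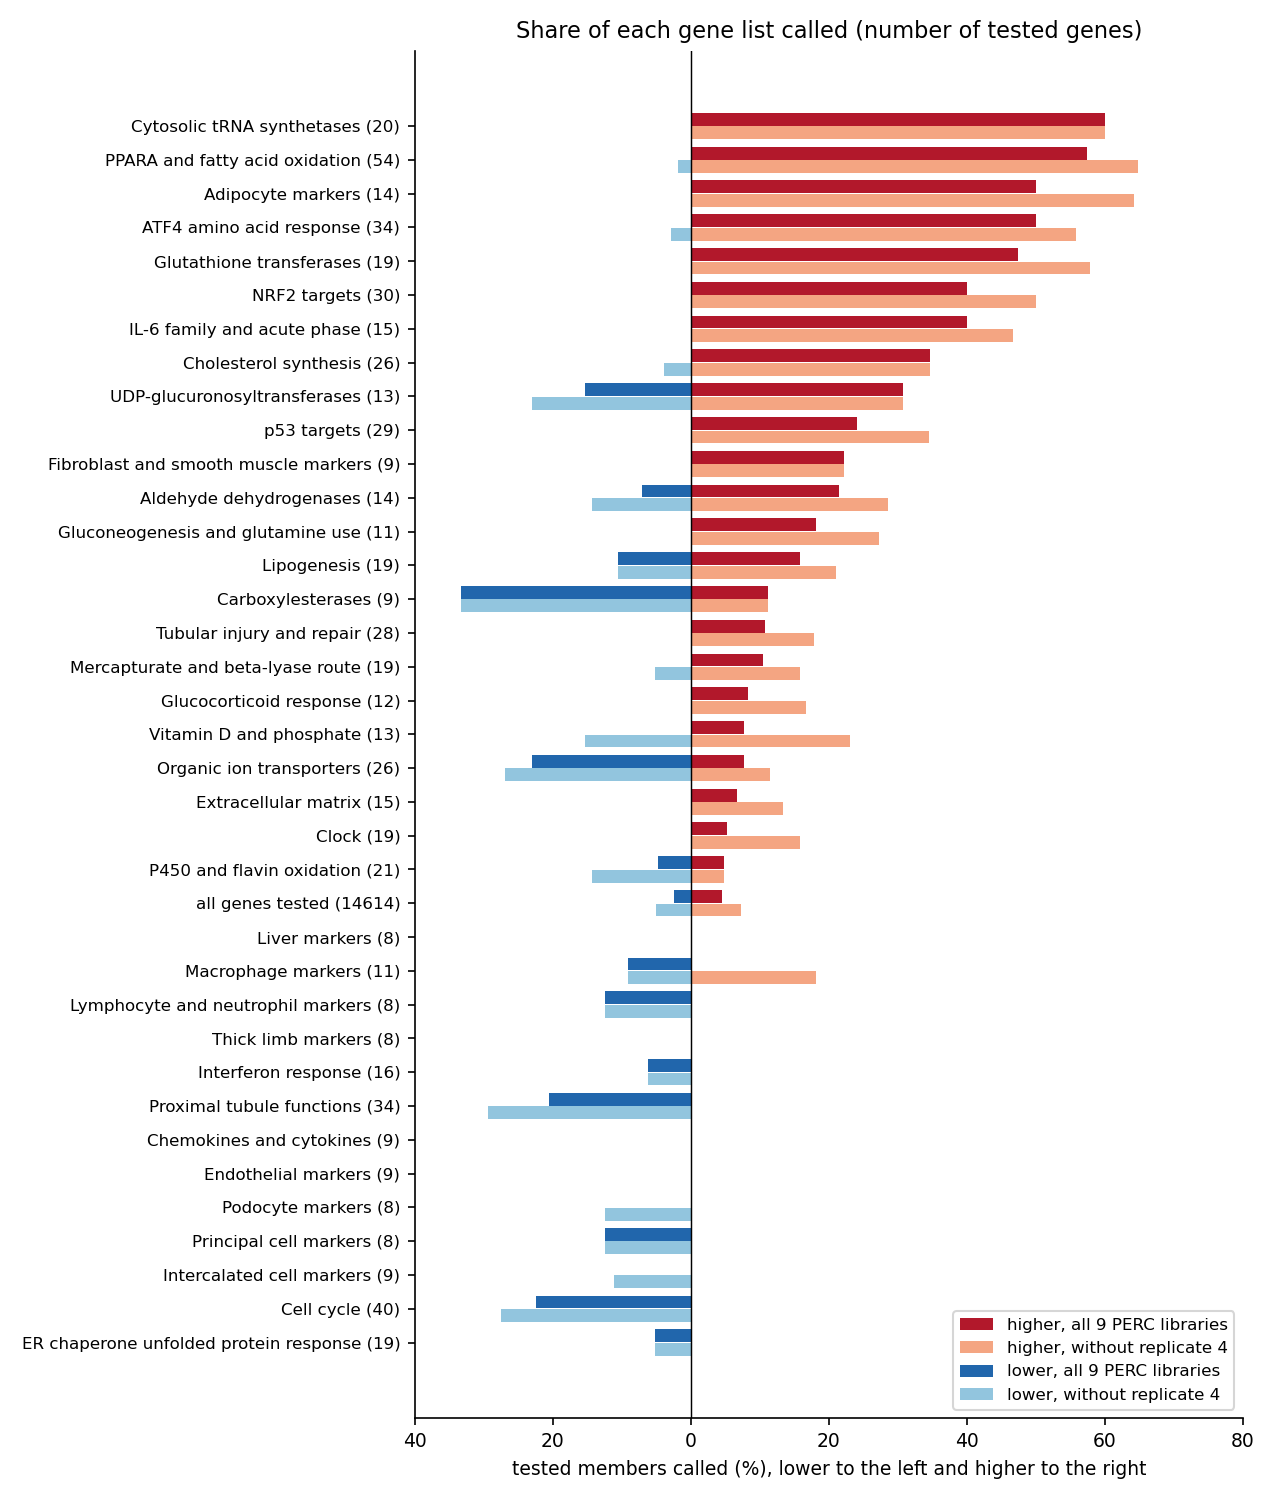
Share of tested members called higher (to the right) or lower (to the left), in percent, for each list with at least 8 tested members, with all 16 libraries and without replicate 4. Beside backgrounds of 4.48% higher and 2.43% lower with all libraries, the PPARA, tRNA synthetase, ATF4 and adipocyte lists hold the highest shares of rises, and the carboxylesterase, organic ion transporter and cell cycle lists those of falls.

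Several leading genes belong to no pathway list. Gm6614 (chr6:141971845-142011414, minus strand), a predicted transporter gene, was at 1.13 to 3.50 CPM (median 1.48) with vehicle and 1.37 to 102 CPM (median 52.7) with PERC. Replicate 4 lay in the vehicle range at 1.37 CPM and the other 8 PERC libraries at 23.6 CPM or more (log2 fold change 4.58, SE 0.49, adjusted p = 3.3e-08, and 4.75 without replicate 4). Coro6, of the actin-binding coronin family, was at 1.66 to 4.11 CPM (median 2.31) with vehicle and 2.25 to 32.6 CPM (median 11.2) with PERC (log2 fold change 2.68, SE 0.35, adjusted p = 1.92e-06, and 2.83 without replicate 4). Vmn2r3, a vomeronasal receptor gene chosen after its values were seen, was barely detected, at 0 to 0.0617 CPM with vehicle and 0.0351 to 1.54 CPM (median 0.842) with PERC (adjusted p = 2.03e-06). A fold change of such a gene depends on a few counts and is not given.

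Among the falls, Banp, which codes for a nuclear matrix protein that binds DNA (chr8:121949750-122029258, plus strand), was at 14.1 to 21.1 CPM (median 16.9) with vehicle and 4.57 to 17.4 CPM (median 5.88) with PERC. Replicate 4, at 17.4 CPM, was the highest PERC library, and the other 8 lay below all vehicle libraries, at 7.63 CPM or less (log2 fold change -1.144, SE 0.19, adjusted p = 6.33e-05, and -1.44 without replicate 4). Uroc1, the urocanase of histidine breakdown, was at 83.5 to 101 CPM (median 95.3) with vehicle and 37.99 to 91.7 CPM (median 57.9) with PERC (log2 fold change -0.70, SE 0.095, adjusted p = 3.37e-06, and -0.82 without replicate 4), and it too was below the vehicle range in 8 of 9 PERC libraries. Gm15348, a long intergenic RNA gene (chr8:12706944-12719127, minus strand), was at 7.84 to 19.5 CPM (median 12.8) and 0.546 to 12.7 CPM (median 2.83) (log2 fold change -1.63, SE 0.37, adjusted p = 0.00455, and -2.13 without replicate 4). Akr1c14, an aldo-keto reductase of steroids (log2 fold change -1.12, SE 0.26, adjusted p = 0.00501, and -1.26 without replicate 4), and Selenbp2, a selenium binding protein gene (log2 fold change -1.11, SE 0.22, adjusted p = 0.000912, and -1.28 without replicate 4), fell as well. The pseudogene Gm6300 was at -1.93 (SE 0.62) and the protease inhibitor gene Pzp at -1.22 (SE 0.39), but each was called in only 4 of the 16 fits that left out 1 library, with highest adjusted p of 0.174 and 0.102.

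The injury marker varied from 13.7 to 199 CPM among the 8 PERC libraries other than replicate 4, and 8 genes were set against it across these libraries. The correlations of log2 CPM were 0.94 with Gsta1, 0.92 with Asns, 0.88 with Cyp4a14 and 0.87 with Krt20 (Pearson's r, n = 8, exact permutation p adjusted over the 8 pairs = 0.00536, 0.00536, 0.00714 and 0.013). Before adjustment the exact p-values were 0.00112, 0.00134, 0.00268 and 0.00652. Spearman's rho was 0.95, 0.95, 0.88 and 0.83, with exact p adjusted over the pairs of 0.00456, 0.00456, 0.0193 and 0.0308. Without the 2 libraries farthest from the Havcr1 median, PERC replicates 1 and 9, r was 0.86, 0.83, 0.77 and 0.77 over 6 libraries (exact permutation p = 0.0389, 0.0417, 0.0847 and 0.0917). Each of the 4 was lower than over 8 libraries. The p-values over 6 libraries were not adjusted over the pairs, and even so those with Cyp4a14 and Krt20 did not pass. Being unadjusted, those with Gsta1 and Asns do not show that these relations pass without the 2 libraries. Whether the 4 relations differ from each other was not tested. The relations with Cdkn1a (r = 0.67), Gc (0.61), Slc34a1 (-0.32) and Adipoq (-0.29) did not pass, with exact permutation p adjusted over the pairs of 0.11, 0.146, 0.519 and 0.533. Lanes hold too few of these libraries for a value within a lane, and depth was not tested as a part of these relations.

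**Figure D5:**
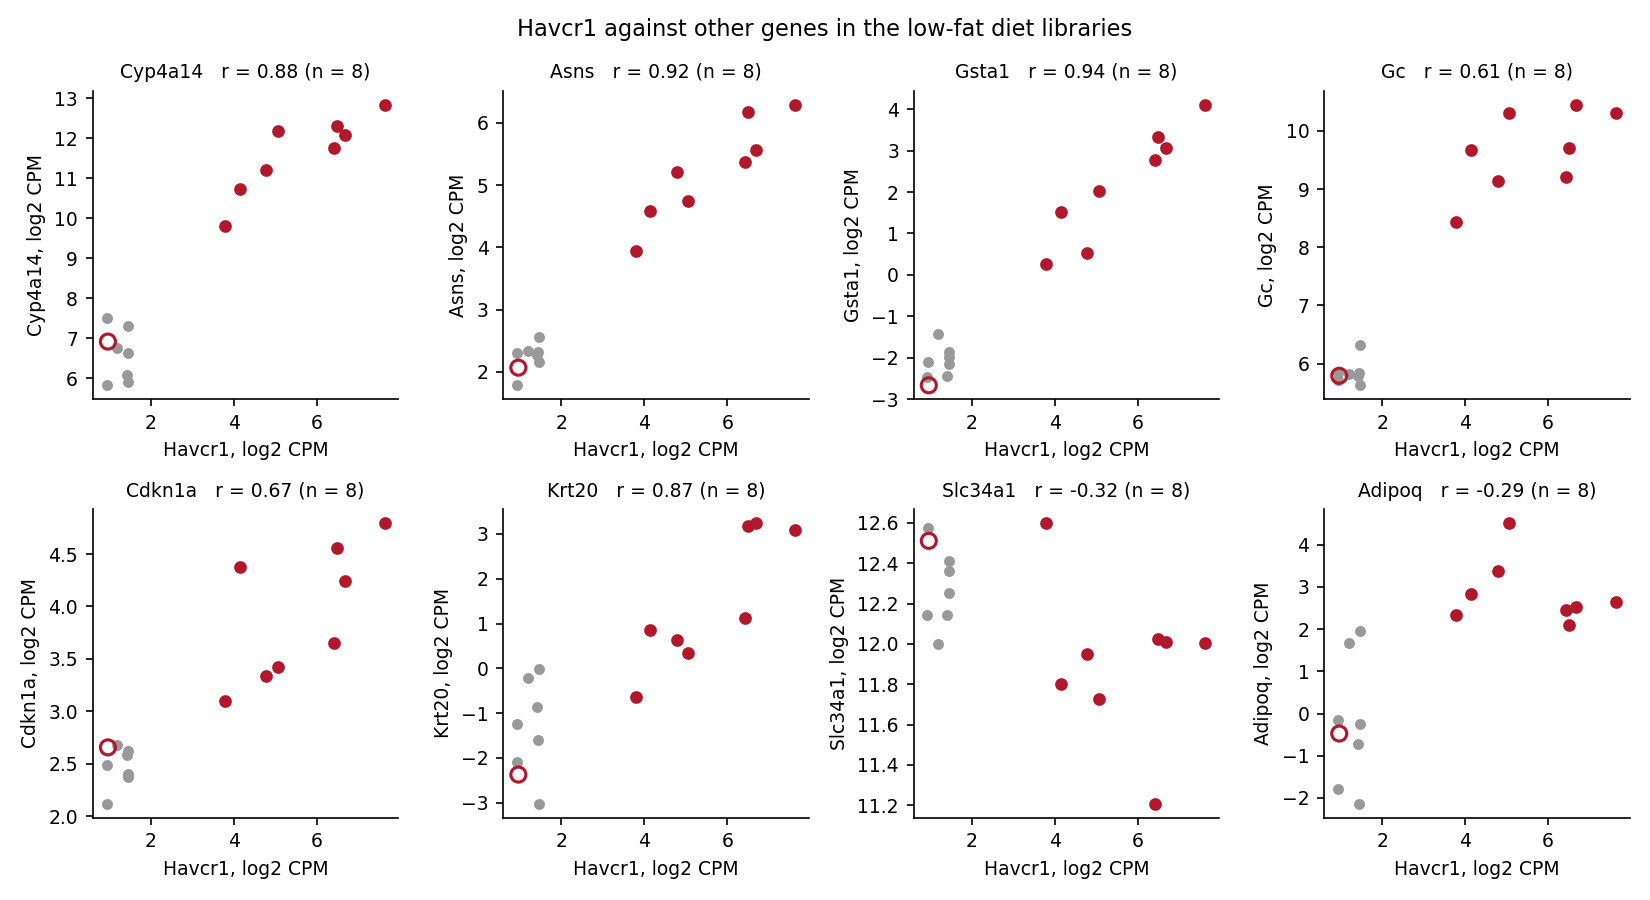
Log2 CPM of Havcr1 (x axis) against log2 CPM of 8 genes (y axes) in the vehicle (grey) and PERC (red) libraries, with replicate 4 as an open circle and r over the 8 other PERC libraries above each panel. The points of Gsta1, Asns, Cyp4a14 and Krt20 climb with Havcr1 among these 8, and those of Slc34a1 and Adipoq do not.

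The same 5 doses on the other diets gave 1342 called genes in HFD mice (9.18%; 4.97% higher and 4.22% lower) and 745 in MCD mice (5.1%; 2.72% and 2.38%). A count is not a test of a difference, so the PERC effect itself was compared between diets. Havcr1 was at 1.23 to 3.93 CPM with vehicle and 6.57 to 106 CPM with PERC in HFD mice (8 libraries each), and 1.11 to 1.67 CPM and 1.73 to 48.7 CPM in MCD mice (7 and 8 libraries). The PERC effect minus that in LFD mice, as log2 fold change, was -1.11, SE 0.94 in HFD and -1.23, SE 0.99 in MCD mice, and neither passed (adjusted p = 0.943 and 0.988). Such errors do not show that the diets act alike. For Cyp4a14 the differences were 0.15, SE 0.65 and 0.052, SE 0.67, for Gc 0.34, SE 0.46 and 0.45, SE 0.47, and for Asns -0.41, SE 0.45 and -0.66, SE 0.46. None of these passed.

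Over all genes 2 differed between HFD and LFD mice (0.0137%). Angptl4, which codes for a secreted lipase inhibitor and PPARA target, was at 62.5 to 115.5 CPM with vehicle and 57.4 to 161 CPM with PERC in LFD mice, where the groups overlapped. In HFD mice it was at 36.3 to 67.1 CPM and 121 to 295 CPM, and the groups did not overlap (difference 1.53, SE 0.28, adjusted p = 0.0176). Sntg2, a syntrophin gene, had a log2 fold change of -0.40 in LFD and 1.1396 in HFD mice (difference 1.54, SE 0.27, adjusted p = 0.0122). Without replicate 4, 4 genes differed, 3 with a higher effect in HFD mice (0.0206%) and 1 with a lower one (0.00685%), in all 0.0274%. Banp (difference 1.35) and Dzip1 (-1.06) joined those 2. Dzip1 was chosen after its values were seen.

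Between MCD and LFD mice no gene differed by edgeR, with 944 at an unadjusted p under 0.05 and 2 called by DESeq2. The smallest p was that of Banp (difference 1.41, SE 0.27, adjusted p = 0.0514), and without replicate 4 it was 1.71 (adjusted p = 2.27e-06), with Zfp493 and Zbtb40, chosen after their values were seen, also called (3 genes, 0.0206%). Banp was at 8.87 to 12.4 CPM with vehicle and 8.39 to 20.1 CPM with PERC in MCD mice. The comparisons between diets share the LFD libraries, so they are not independent of each other.

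After a single dose in LFD mice, 133 of 15139 genes were called (0.879%; 4 PERC and 5 vehicle libraries). Gc differed between the regimens: after a single dose it was at 36.95 to 49.5 CPM with vehicle and 56.8 to 106 CPM with PERC (difference 2.96, SE 0.49, adjusted p = 0.00115). Aldh1l2, the mitochondrial formyl-tetrahydrofolate dehydrogenase, was at 3.32 to 6.53 CPM and 3.95 to 6.36 CPM after a single dose (difference 2.11, SE 0.42, adjusted p = 0.0389). These were the only 2 genes of 15139 that differed (0.0132%). Cyp4a14 was at 10.49 to 71.7 CPM and 422 to 3431 CPM after a single dose, and its difference of effects, -0.79, SE 0.87, did not pass, nor did those of Asns (1.10, SE 0.49) and Havcr1 (3.02, SE 0.99). The number of doses, the time after the last dose (24 h against 4 h) and the sequencing lanes (1 to 3 against 4 to 8) cannot be told apart here.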

How the data were processed

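The authors deposited raw read counts, with whole numbers for each gene symbol and a file for each library. RNA was extracted with Qiagen miRNeasy kits and libraries were made with the Illumina TruSeq stranded mRNA kit, per the labels' protocols. Per the submitters' processing notes, the mouse build was GRCm38 (mm10), and the tools named, in no order, were TopHat2 2.0.13, HTSeq, DESeq2, Trimmomatic and bcl2fastq 2.17.1.14. Annotation and strand setting are not given in the sources used here. Values of genes that overlap another are therefore uncertain, as are those of families that share sequence (Cyp4a, Acot1 to Acot3, Aldh1a1 and Aldh1a7, Ugt1a, Ces1 and Gsta1).

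Reads assigned to no gene were left out. They included 16.6% to 36.5% of reads with no feature and 6.91% to 30.9% aligned to several places. Libraries needed 1000000 counts in genes, which all 16 passed. Of 24499 genes, filterByExpr kept 14614 over the 6 repeated groups (47 libraries) and 15139 over the 12 groups used for the single dose (72 libraries). Counts were scaled with TMM factors (0.932 to 1.06) and fitted with 1 mean per group with edgeR 4.0.16 in R 4.3.3, so that all repeated groups share 1 estimate of spread (common biological coefficient of variation 0.157). The quasi-likelihood test is two-sided, with Benjamini-Hochberg adjustment over all genes tested. SE is the absolute log2 fold change over the root of the F statistic. Log2 CPM used a prior count of 2. The fits were tested on simulated data. Lane was read from the file names. None of 57 pairs of libraries within the groups was identical. No label states that libraries are from separate animals, and p-values then measure only spread between these libraries. Values under about 1 CPM rest on few counts.

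The compared groups and the gene lists were chosen with earlier results of these data known. Genes are named by a rule: Havcr1 and the 8 genes set against it, the 10 largest rises and 10 largest falls among called genes with a mean of at least 5 CPM, the list and role members with the smallest p, and the called genes of each comparison of effects. Further genes, which include the ribosomal and translation families and list members outside that rule, were named after their values were seen. Alternatives were DESeq2 1.42.0, other size factors (RLE), no filter on low counts, lane or adipocyte marker level as a covariate, the LFD repeated groups alone, and leaving out each library. Promoters came from the RefSeq table for GRCm38.p6. Some genes and sequences are not reported here.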

Additional observations from a re-analysis of the deposited data

Results flagged for a closer look

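For 35 of 480 pairs of a named gene and a group (vehicle or PERC), the highest or lowest library stood apart, with a gap to the next library, as a share of the group's range of log2 CPM, above Dixon's 95% critical value. Chance alone flags about 1 in 20 groups. The library labelled PERC replicate 4 was the one apart for 7 of them: Gc (0.5662, lowest), Adipoq (0.5169, lowest), Gm6614 (0.6543, lowest), Banp (0.6183, highest), Retn (0.4987, lowest), Cidec (0.6677, lowest) and Ddb2 (0.5063, lowest). Among other libraries, the highest PERC library was apart for Fth1 (PERC replicate 1, 0.5288), Ucp1 (PERC replicate 2, 0.5064), Tyms (PERC replicate 2, 0.5151), Spp1 (PERC replicate 3, 0.5523), Klf9 (PERC replicate 5, 0.5555), S100a9 (PERC replicate 5, 0.5213), Ces1c (PERC replicate 9, 0.4971) and Apoa2 (PERC replicate 9, 0.6001). Among other libraries, the lowest PERC library was apart for Tie1 (PERC replicate 3, 0.5224), Ggt1 (PERC replicate 3, 0.535), Slc22a6 (PERC replicate 3, 0.5182), Pdia3 (PERC replicate 8, 0.5216) and Sntg2 (PERC replicate 8, 0.5518). Among other libraries, the highest vehicle library was apart for Acadvl (vehicle replicate 2, 0.5847), Gsta2 (vehicle replicate 2, 0.7236), Alb (vehicle replicate 5, 0.7731), Gc (vehicle replicate 6, 0.6936), Slc22a19 (vehicle replicate 6, 0.5736), Gsto1 (vehicle replicate 6, 0.6606), Slc4a1 (vehicle replicate 6, 0.7854) and Cbr1 (vehicle replicate 6, 0.6051). Among other libraries, the lowest vehicle library was apart for Aldh18a1 (vehicle replicate 1, 0.584), Cd4 (vehicle replicate 4, 0.6421), Nat8f5 (vehicle replicate 6, 0.583), Psat1 (vehicle replicate 6, 0.6053), Lox (vehicle replicate 7, 0.6073), Gbp3 (vehicle replicate 7, 0.6066) and Acot1 (vehicle replicate 7, 0.5895). Vehicle replicate 6 and vehicle replicate 7 appear several times among these.

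The PERC effect differed between groups for 4 genes. On the log2 scale it was higher in HFD than in LFD mice by 1.54 for Sntg2 and 1.53 for Angptl4. It was higher after 5 doses than after 1 dose by 2.96 for Gc and 2.11 for Aldh1l2, a comparison in which doses, times and lanes cannot be told apart.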

How the results depend on the processing

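The 1010 calls stayed within 1.5 times under DESeq2 (1192), RLE size factors (1010), no filter (858), lane as a covariate (1117) and the LFD groups alone without replicate 4 (1355). They were 363 with the 2 LFD groups alone, 182 with the adipocyte covariate and, in alternatives added after seeing the data, 1903 with lane and 1984 with DESeq2 without replicate 4. Leaving out each library gave 640 (without PERC replicate 1) to 1798, with 645 without PERC replicate 8 and 650 without vehicle replicate 7. The 1798 calls without replicate 4 became 1355 with the LFD groups alone and 1080 with the adipocyte covariate. In alternatives added after seeing the data, they became 1903 with lane and 1984 with DESeq2. For the HFD minus LFD effect, the 2 calls became 6 with DESeq2 and 1 to 5 leaving out each library. Without replicate 4, its 4 calls became 10 with lane and 14 with DESeq2. For MCD minus LFD, the 0 calls became 2 with DESeq2, 1 with RLE, 3 with lane and 0 to 3 leaving out each library. Without replicate 4, its 3 calls became 7 with lane and 18 with DESeq2. For repeated minus single, the 2 calls became 1 with no filter and 1 to 3 leaving out each library. Over all 9 PERC libraries the correlation of Havcr1 with Gc was 0.86, with Cdkn1a 0.79 and with Adipoq 0.55, where replicate 4 forms a cluster of its own. Among the named genes that were called, 29 lost the call in at least 1 fit that left out a library and 112 kept it in all of them, while 77 lost it in at least 1 other setting and 64 kept it. With the adipocyte covariate, Cidea turned to -0.044 and Plin1 to -0.34, and to -0.14 and -0.36 also without replicate 4, and the covariate is itself made of adipocyte markers. The causes of the other shifts were not tested. No paired analysis was possible because the replicate numbers follow accession order and pair no libraries. Low counts limit Gsta1, Krt20, Areg and Adipoq in vehicle libraries most.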
